A study of Mus musculus with 6 samples.

Results

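The transcripts described here encode 9 enzymes that turn squalene into cholesterol: Sqle, Lss, Cyp51, Tm7sf2, Msmo1, Nsdhl, Hsd17b7, Sc5d and Dhcr7. They were taken by name as a pathway, and all 9 were found among the 49212 genes counted and passed the low-count filter that left 15126 genes. Liver RNA came from C57BL/6J mice aged 15 weeks, in 3 libraries labelled placebo and 3 labelled as PCOS mice with a DHT pellet. DHT, dihydrotestosterone, is an androgen, and slow-release pellets of it are a common mouse model of polycystic ovary syndrome (PCOS). The labels name no sex, dose, duration, feeding state or time of day. Nothing in them ties each library to an animal of its own, and the p-values therefore cover the spread of these 6 samples, which may be technical. The study concerns androgen, the circadian system of the liver and fatty liver.

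Cholesterol is built in the endoplasmic reticulum from acetyl-CoA by way of mevalonate and squalene. SQLE adds oxygen to squalene, LSS closes the rings to give lanosterol, and the other enzymes strip methyl groups and move or reduce double bonds until cholesterol is reached. Hepatocytes run this pathway at a high rate, and its genes are known as targets of the transcription factor SREBP2, which is released when membrane sterol is low and held back by INSIG proteins when it is high.

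Total counts per library ran from 41336844 to 60209462. Levels are given as CPM, the count of a gene scaled to the total of its library, and 3 counts in a library were at most 0.0726 CPM. Transcripts of Y-linked genes summed to 145 to 169 CPM in the DHT libraries and 1.02 to 2.16 CPM in placebo, and Xist, expressed from the inactive X chromosome of females, had 0.116 to 0.556 CPM in DHT and 23.3 to 235 CPM in placebo. Treatment and sex therefore cannot be told apart in any comparison below. The 10 hepatocyte markers held 88900 to 101000 CPM in DHT and 100000 to 155000 CPM in placebo. Of these 10, 0 were called, that is, had an adjusted p under 0.05 by edgeR, and 3 had an unadjusted p under 0.05. A log2 fold change below 0 was seen in 9 of the 10, against 51.9% of all genes. Their median was −0.6, against −0.0245 over all genes. In 8 marker lists of other cell types 1 gene was called, Cfd, an adipocyte-associated protease gene that rose (adjusted p = 0.0134, edgeR), and the adipocyte list summed to 5.34 to 21.4 CPM in placebo and 20.1 to 76.1 CPM in DHT. Cholangiocyte markers summed to 75.7 to 83.2 CPM in placebo and to 63.8, 110.0 and 54.4 CPM in DHT 1, 2 and 3, most of it Spp1. Of the 5 tested, Krt19 (log2 fold change −1.49), Krt7 (−1.17) and Epcam (−0.89) were lower in DHT with no overlap and an unadjusted p under 0.05. After TMM scaling, a correction for composition, 10.9% of all genes were lower with no overlap, and 8.52% had such a p on the lower side. Spp1 (−0.24) overlapped between the groups, as did Sox9, which went the other way (0.51). Of the 5, 0 were called (smallest adjusted p = 0.0892, edgeR). The defining adipocyte genes Adipoq, Lep, Plin1 and Retn had at most 10 counts each, summed over the 6 libraries, as had 5 of 6 pancreas genes. The part of these markers in the results was not tested. In bulk tissue, fewer cells of a type and less RNA per cell cannot be told apart.

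Promoters are shown first as a description of the genes, and their part in the levels below was not tested. RefSeq start sites on GRCm38.p6 gave 10 windows, each from 250 bases before to 50 after the start, for 8 of the 9 genes. Sqle had no entry. Dhcr7 had more than 1 window, and a gene was counted if any of its windows held a match. The CCAAT box, an element bound by NF-Y, a known partner of SREBP at sterol genes, was searched as CCAAT on both strands (ATTGG when read on the other strand). At least 1 match lay in a window of 8 of these 8 genes, against 37.4% of all 32851 windows and 41.1% of all genes with a window. The GC box GGGCGG, searched on both strands, was also found in 8 of the 8 genes, against 35.7% of all windows and 38.2% of all genes with a window. The E-box CACGTG, which reads the same on both strands, was found in Dhcr7, Hsd17b7 and Sc5d. It was in 7.15% of all windows and 8.09% of all genes with a window. In Dhcr7 it lies in a different window from the CCAAT boxes. The sterol regulatory element in its strict form TCACNCCAC was found in 0 of the 8 genes on either strand. It was in 1.24% of all windows and 1.44% of all genes with a window. The 0 says only that these letters are not in these windows. No matches of different motifs shared a base. These matches are a description of the sequence and not of binding.

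The windows of Cyp51, Tm7sf2 and Msmo1 are printed because these are the genes whose groups did not overlap after scaling, and that of Hsd17b7 because its fold change was the smallest. They are given 5′ to 3′ along the gene, with each CCAAT box in capitals as CCAAT or ATTGG, at chr5:4104648-4104947, chr19:6067801-6068100, chr8:64733529-64733828 and chr1:169969156-169969455, all on the minus strand.
Cyp51: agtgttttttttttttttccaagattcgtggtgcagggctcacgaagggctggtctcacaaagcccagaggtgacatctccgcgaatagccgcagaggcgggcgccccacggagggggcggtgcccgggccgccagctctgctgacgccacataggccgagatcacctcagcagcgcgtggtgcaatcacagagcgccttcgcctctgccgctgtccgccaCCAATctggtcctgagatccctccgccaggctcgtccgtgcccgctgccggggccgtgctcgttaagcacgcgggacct
Tm7sf2: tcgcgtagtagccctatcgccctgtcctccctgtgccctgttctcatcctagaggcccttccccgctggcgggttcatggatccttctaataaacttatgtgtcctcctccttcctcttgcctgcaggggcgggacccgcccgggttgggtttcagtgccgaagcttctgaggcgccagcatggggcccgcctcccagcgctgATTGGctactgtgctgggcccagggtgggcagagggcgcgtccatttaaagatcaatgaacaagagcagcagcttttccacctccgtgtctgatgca
Msmo1: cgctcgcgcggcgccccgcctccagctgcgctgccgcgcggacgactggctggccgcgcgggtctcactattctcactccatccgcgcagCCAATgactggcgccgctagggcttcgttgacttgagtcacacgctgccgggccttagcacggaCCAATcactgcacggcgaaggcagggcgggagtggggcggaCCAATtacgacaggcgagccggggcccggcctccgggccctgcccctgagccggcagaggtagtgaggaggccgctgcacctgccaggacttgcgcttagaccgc
Hsd17b7: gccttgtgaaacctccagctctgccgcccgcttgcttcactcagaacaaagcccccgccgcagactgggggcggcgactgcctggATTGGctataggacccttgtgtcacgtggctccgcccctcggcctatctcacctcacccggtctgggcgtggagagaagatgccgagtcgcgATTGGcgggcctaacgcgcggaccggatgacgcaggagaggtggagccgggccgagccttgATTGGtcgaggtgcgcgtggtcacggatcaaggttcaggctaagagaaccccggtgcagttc
Cyp51 has 1 CCAAT box, starting 29 bases before the start site, and Tm7sf2 has 1, starting 47 bases before it. Msmo1 has 3, at 160, 96 and 55 bases before the start, and Hsd17b7 has 3, at 165, 73 and 12 bases before it. Among the windows that are not printed, the box starts 62 bases before the start of Lss, 24 before that of Sc5d, and 85 and 49 before that of Dhcr7. Nsdhl has 2 ahead of its start, at 109 and 20 bases, and others behind it.

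**Figure D1:**
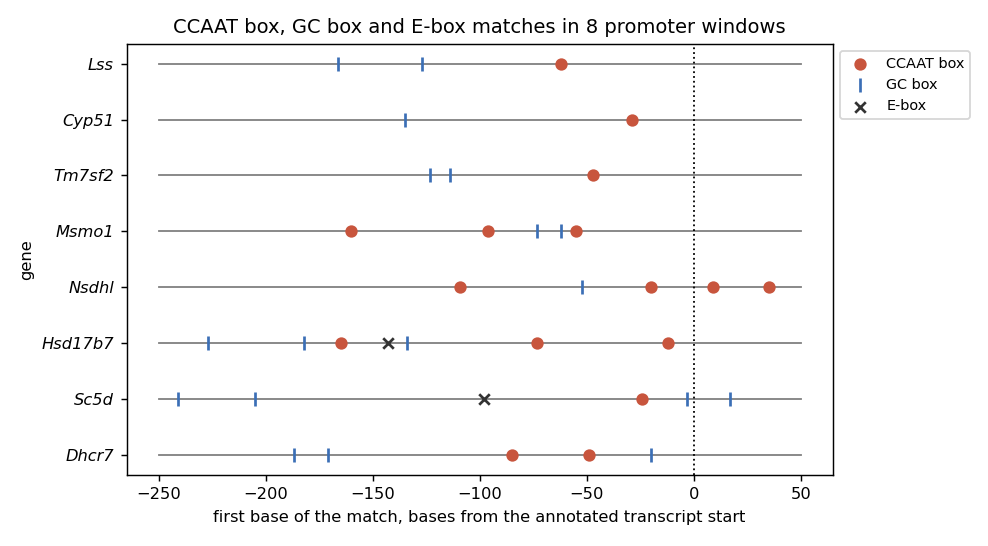
Position of CCAAT boxes (circles), GC boxes (bars) and E-boxes (crosses) in bases from the annotated transcript start, for 8 genes with a promoter window. For Dhcr7 only the window that holds CCAAT boxes is drawn, so its E-box and a GC box, in other windows, are not shown. Each of the 8 windows holds at least 1 CCAAT box; in Nsdhl it lies on both sides of the start.

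In the liver libraries, DHT 1 and DHT 3 held less of these transcripts than placebo, while DHT 2 was near placebo. Summed over the 9 genes, the level was 2368, 3010 and 2782 CPM in placebo 1, 2 and 3 and 1035, 2665 and 1535 CPM in DHT 1, 2 and 3. DHT 1 stood below all placebo libraries in 9 of 9 genes, and DHT 3 in 7 of 9. DHT 2 did so in 1 of 9, Msmo1. After TMM scaling, which corrects for composition, these counts were 9, 9 and 3 of 9 for DHT 1, 3 and 2, where 21.6%, 18.6% and 22.7% of the 8925 tested genes with a mean of at least 5 CPM were below placebo.

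**Figure D2:**
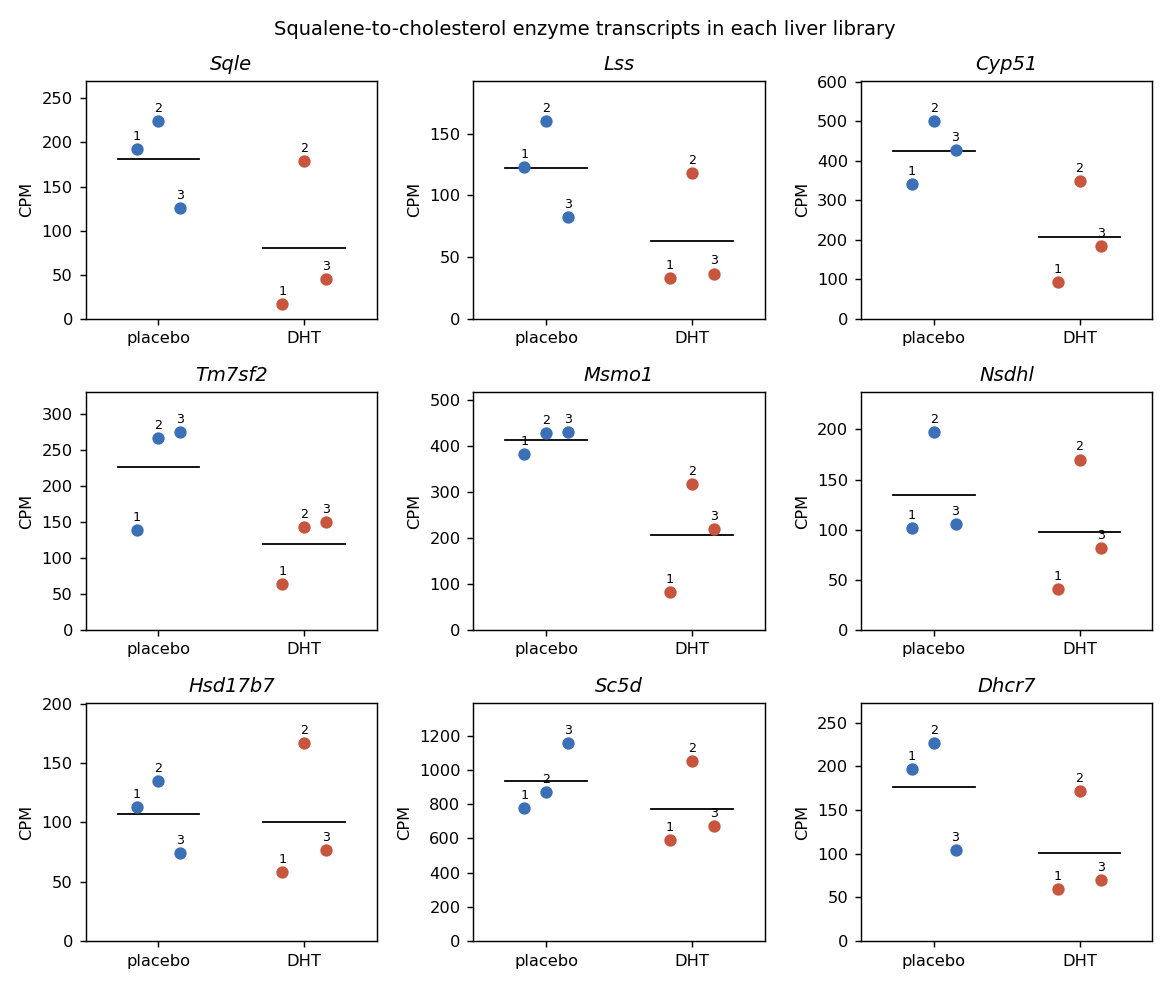
CPM of each of the 9 transcripts in each library (vertical axes from 0, each gene on its own scale); points are single libraries with their replicate number, and short lines are the mean of the 3 points. DHT 1 is the lowest point in all 9 panels, and DHT 2 lies within or above the placebo range in 8 of them.

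Sqle had the largest ratio between DHT libraries of the 9 genes. It encodes the flavoprotein monooxygenase that opens this branch, a rate-limiting step. Sqle (GRCm38 chromosome 15, 59315077 to 59331192) had 193, 225 and 125 CPM in placebo 1, 2 and 3 and 16.1, 179 and 45.0 CPM in DHT 1, 2 and 3. DHT 1 and 3 were below placebo and DHT 2 lay inside its range, so the groups overlapped. Lss, which folds oxidosqualene into lanosterol (chromosome 10, 76531588 to 76557138), had 123, 161 and 82.6 CPM in placebo and 33.1, 118 and 36.6 CPM in DHT, in the same order of libraries. As for Sqle, DHT 2 alone of the DHT libraries was within placebo. For Sqle the fit with edgeR's quasi-likelihood test and Benjamini-Hochberg adjustment gave a log2 fold change, DHT over placebo, of −1.38 ± 0.74 (SE; 95% interval −3.10 to 0.33, adjusted p = 0.396). For Lss it was −1.16 ± 0.52 (−2.35 to 0.03, adjusted p = 0.322).

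Removal of methyl groups follows. Cyp51, a cytochrome P450 that takes a methyl group off lanosterol (chromosome 5, 4081145 to 4104746), had 341.5, 501 and 427 CPM in placebo 1, 2 and 3 and 91.5, 348 and 183 CPM in DHT 1, 2 and 3. DHT 2 reached the lowest placebo library in CPM, and after TMM scaling the groups were apart. Tm7sf2, the reductase that acts next and shares its reaction with the lamin B receptor (chromosome 19, 6062821 to 6068373), had 139, 265.5 and 275 CPM in placebo and 63.3, 142 and 149 CPM in DHT. Here placebo 1 was as low as DHT 2 and 3, and DHT 3 was not below DHT 2, unlike in the other 8 genes.

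Msmo1, the oxidase that starts removal of the paired methyl groups (chromosome 8, 64718139 to 64733792), had 382, 427 and 430.2 CPM in placebo 1, 2 and 3. In DHT 1, 2 and 3 it had 82.7, 317 and 218 CPM. It was the only one of the 9 whose groups did not overlap in CPM without TMM scaling, and its placebo libraries differed by no more than 1.13-fold. Nsdhl, the dehydrogenase that releases the oxidised methyl group (chromosome X, 72918557 to 72958514), had 102, 198 and 105 CPM in placebo and 40.9, 170.0 and 82.1 CPM in DHT. Hsd17b7, the ketoreductase that completes this round (chromosome 1, 169949535 to 169969241), had 113, 135 and 74.1 CPM in placebo and 58.3, 167 and 76.35 CPM in DHT. In Hsd17b7 DHT 2 was the highest of all 6 libraries, and in Nsdhl it was second only to placebo 2.

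The log2 fold change of Cyp51 was −1.23 ± 0.46 (95% interval −2.29 to −0.17, adjusted p = 0.249), that of Tm7sf2 −1.14 ± 0.41 (−2.09 to −0.19, adjusted p = 0.239) and that of Msmo1 −1.21 ± 0.44 (−2.23 to −0.19, adjusted p = 0.244). For Nsdhl it was −0.67 ± 0.51 (−1.85 to 0.51, adjusted p = 0.547). For Hsd17b7 it was −0.29 ± 0.42 (−1.26 to 0.68, adjusted p = 0.77). Exons of Tm7sf2 overlap those of Vps51 over 15.3% of their length on the same strand, those of Cyp51 overlap Akap9 over 3.76% and those of Lss overlap 4930483K19Rik over 3.53%. How reads there were assigned is not given in the labels. Vps51 had 7.54 to 17.1 CPM in the 6 libraries, far below Tm7sf2.

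The last steps differed least for Sc5d. Sc5d, the desaturase that makes the dehydro precursor of cholesterol (chromosome 9, 42251595 to 42264256), had 778, 871.5 and 1159 CPM in placebo 1, 2 and 3. Its DHT libraries held 589.6, 1051 and 675 CPM, with DHT 2 again inside the placebo range. Dhcr7, which reduces that precursor to cholesterol (chromosome 7, 143823145 to 143848410), had 197, 227 and 104 CPM in placebo and 59.8, 172 and 69.3 CPM in DHT. The log2 fold change was −0.48 ± 0.32 for Sc5d (95% interval −1.21 to 0.26, adjusted p = 0.497) and −1.003 ± 0.47 for Dhcr7 (−2.08 to 0.07, adjusted p = 0.341).

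Per kilobase of exon, the scale on which levels of different genes can be set side by side, Sc5d was the most abundant in placebo at 192 ± 40.8 CPM per kb (SD, n = 3). Cyp51 followed at 95.8 ± 18.1, and both were apart from the next gene in every placebo library. Msmo1 (67.3 ± 4.36), Tm7sf2 (65.0 ± 21.8), Nsdhl (47.3 ± 19.0), Sqle (32.6 ± 9.18), Dhcr7 (30.2 ± 11.0), Hsd17b7 (21 ± 6.03) and Lss (11.3 ± 3.62) came after them, and each neighbour in this order overlapped the next. In DHT the order again began with Sc5d (159 ± 50.4 CPM per kb) and Cyp51 (47.0 ± 29.5) and ended with Lss (5.81 ± 4.47), and only Sc5d was apart from the gene after it. Sqle came next to last there, at 14.4 ± 15.7 CPM per kb. The exon length of Lss in the deposited tables, 10787 bases, is the longest of the 9 and lowers its value on this scale.

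By edgeR's quasi-likelihood test 0 of the 9 genes were called at an adjusted p under 0.05, where 0.701% of all genes were called lower in DHT and 1.65% in either direction. All 9 had a log2 fold change below 0, as had 51.9% of all genes, and their median was −1.14 against −0.0245 over all genes. At an unadjusted p under 0.05 there were 3 of 9, Cyp51, Tm7sf2 and Msmo1, against 8.52% of all genes on the lower side and 15.9% in either direction. These 3 p-values, in that order, were 0.0571, 0.052 and 0.0553 by edgeR with library size alone in place of TMM. Without placebo 2 they were 0.0793, 0.0686 and 0.0584 by edgeR. After TMM scaling the groups did not overlap in the same 3 genes, all lower in DHT, where 10.9% of all genes were lower with no overlap. DESeq2 called 0 of the 9, where it called 3.08% of all genes lower, and had 6 with an unadjusted p under 0.05, against 6.59% of all genes on the lower side. Limma voom with quality weights called 0 of the 9, where it called 2.24% of all genes lower, and had 1 with an unadjusted p under 0.05, against 11.1% on the lower side.

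With the replicate number as a block, 5 of the 9 fell, where 5.28% of all genes were called lower. These were Lss (log2 fold change −1.36 ± 0.29, adjusted p = 0.000585), Cyp51 (−1.41 ± 0.32, adjusted p = 0.00125), Msmo1 (−1.39 ± 0.33, adjusted p = 0.00211), Tm7sf2 (−1.16 ± 0.29, adjusted p = 0.00366) and Dhcr7 (−1.09 ± 0.29, adjusted p = 0.00858), all by edgeR. Nsdhl (adjusted p = 0.051), Sqle (adjusted p = 0.187), Sc5d (adjusted p = 0.373) and Hsd17b7 (adjusted p = 0.419) did not pass in that fit. The block pairs libraries by a number in their titles that the labels tie to no litter, day or cage.

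**Figure D3:**
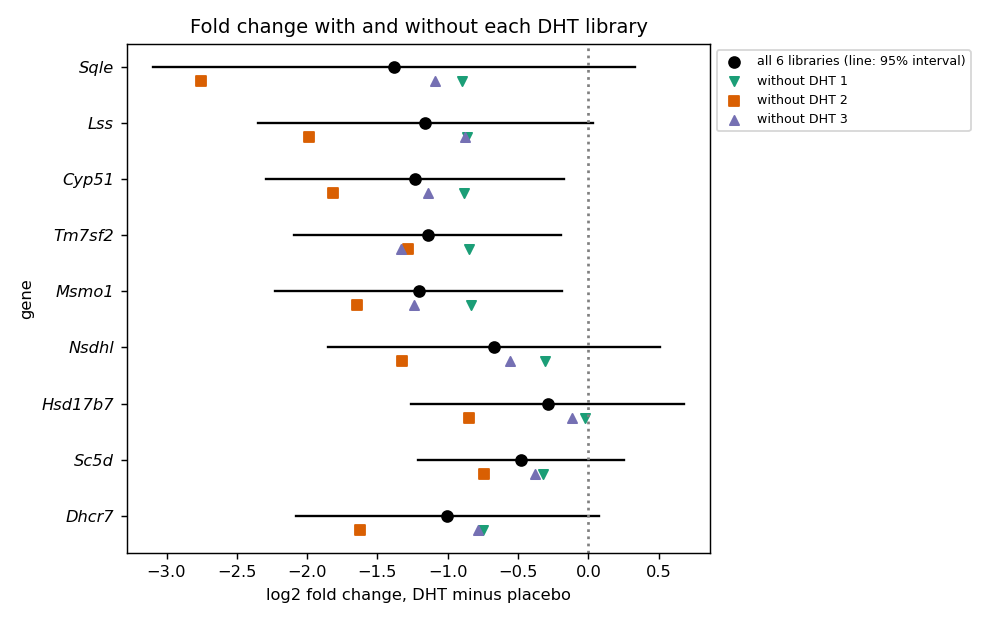
Log2 fold change of the 9 genes (horizontal axis; circles, with lines for the 95% interval) and the same value with 1 DHT library left out (triangles and squares). Leaving out DHT 2 gives the most negative value in 8 of the 9 genes, down to −2.76 for Sqle, and for Tm7sf2 leaving out DHT 3 does.

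How far the fold changes depended on single libraries differed between genes. Without DHT 2 the log2 fold change was −2.76 ± 0.55 for Sqle (edgeR adjusted p = 0.105), −1.98 ± 0.40 for Lss (adjusted p = 0.105) and −1.82 ± 0.43 for Cyp51 (adjusted p = 0.171). In that fit 7 of the 9 had an unadjusted p under 0.05, against 5.1% of all genes on the lower side, and 0 of 9 were called, where 0.205% of all genes were called lower. Without DHT 1, the lowest library, it was −0.90 ± 0.59 for Sqle, −0.86 ± 0.55 for Lss and −0.02 ± 0.45 for Hsd17b7, and 0 of the 9 had an unadjusted p under 0.05, against 4.5% of all genes on the lower side. The median of the 9 was −1.62 without DHT 2 and −0.834 without DHT 1.

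The spread within the DHT group was itself unlike that of most genes. Between its highest and lowest library the CPM of Sqle differed 11.1-fold, that of Nsdhl 4.16-fold, that of Msmo1 3.83-fold, that of Cyp51 3.81-fold and that of Lss 3.58-fold. Sc5d had the smallest such ratio, 1.78-fold. Counting error is small beside these ratios: for Sqle, DHT 2 over DHT 1 was 11.1 with a 95% counting interval of 10.4 to 11.9, from 9250 and 953 counts. After TMM scaling the median over the 9 genes was 3.44-fold in DHT and 1.82-fold in placebo. Over the 8925 genes with a mean of at least 5 CPM it was 1.31-fold in DHT and 1.87-fold in placebo. The DHT libraries were thus closer to each other than the placebo libraries over all genes and further apart in these 9. This was not particular to the 9, as the mevalonate to squalene enzyme genes described below had medians of 3.12-fold in DHT and 1.44-fold in placebo.

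DHT 2 exceeded DHT 1 by at least 2-fold in 8 of the 9 genes (all except Sc5d) after TMM scaling, and in 0.975% of the 8925 genes. It also did so in 9 of the 9 mevalonate to squalene enzyme genes. In that ordering 1 gene had a larger ratio than Sqle, which stood at 10.7-fold. Among the 20 genes with the largest ratio, 4 were of the 9 (Sqle, Nsdhl, Msmo1 and Cyp51), and Idi1 and Hmgcs1, which encode enzymes of the preceding steps, were there too. Most of the 20, 13 genes, were in none of the gene lists used here. Among these were Chrna4, the first at 22.3-fold, Cish (7.11-fold) and Mup14 (5.25-fold). DHT 1 and 2 were also the pair of libraries closest to each other over all genes within a group, with a chi-square per degree of freedom of 104.1 against 224.4 to 685.7 for the other pairs. Hepatocyte markers summed to 101000 CPM in DHT 1 and 100000 CPM in DHT 2, most of it Alb (68610 and 68950 CPM). Single markers differed between DHT 1 and DHT 2 in both directions. Cps1 had 2445 and 1043 CPM, Tat 1162 and 464.8 CPM, and Apoa1 6550 and 8888 CPM. Mitochondrial genes took 6.44%, 8.47% and 8% of the counts in DHT 1, 2 and 3, and the part of this share in the result was not tested.

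**Figure D4:**
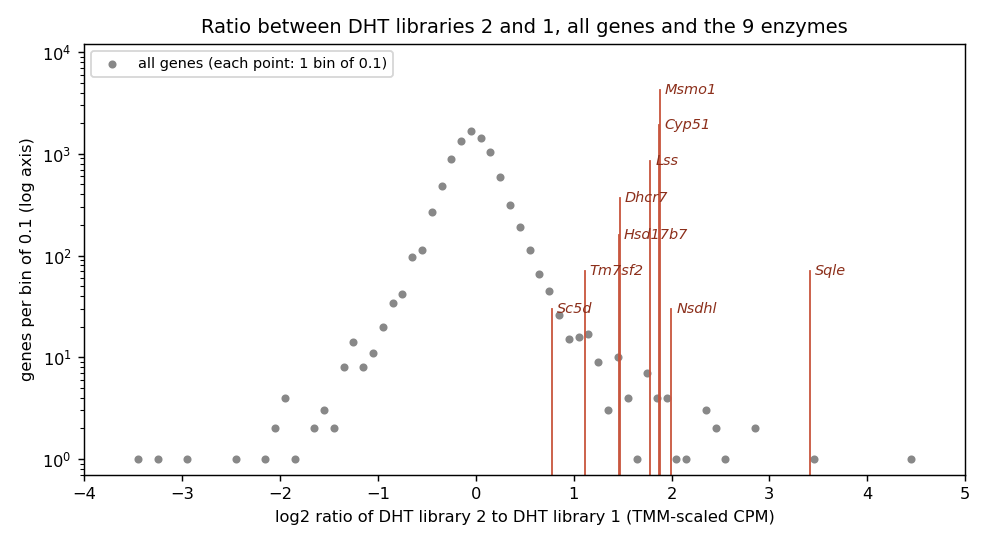
Distribution of the log2 ratio of DHT library 2 to DHT library 1 (horizontal axis, TMM-scaled CPM) over 8925 genes, as genes per bin of 0.1 on a log axis (points), with the 9 enzymes marked by lines whose heights only separate the labels. Most genes lie near 0, and the 9 enzymes lie between 0.78 (Sc5d) and 3.42 (Sqle).

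The steps before squalene followed the same order of libraries. Of 9 mevalonate to squalene enzyme genes, 0 were called by edgeR, 4 had an unadjusted p under 0.05, 9 had a log2 fold change below 0 and the median was −0.869. DHT 2 was the highest and DHT 1 the lowest of the DHT libraries in 9 of 9 after TMM scaling, as in 8 and 9 of the 9 later enzymes. Over the 8925 genes with a mean of at least 5 CPM, DHT 2 was highest in 26.5% and DHT 1 lowest in 23.7%. For Pmvk, the phosphomevalonate kinase gene, the level was 89.3, 96.6 and 105 CPM in placebo 1, 2 and 3 and 25.4, 74.3 and 37.8 CPM in DHT 1, 2 and 3, with no overlap. Its log2 fold change was −1.28 ± 0.38 (edgeR adjusted p = 0.167), and it was called with the block (adjusted p = 0.000312) and by DESeq2. With the block 6 of these 9 were called lower, and by DESeq2 3.

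Of 4 tested genes of other post-squalene enzymes and their scaffold, 0 were called by edgeR, 3 had an unadjusted p under 0.05 and 4 had a log2 fold change below 0. For Lbr, the lamin B receptor that also carries sterol reductase activity, the log2 fold change was −1.03 ± 0.24 (edgeR adjusted p = 0.0872). Unlike Tm7sf2, it stayed between 7.36 and 9.61 CPM in the 3 DHT libraries, below 13.4 to 16.5 CPM in placebo. 0610007P14Rik, which RefSeq lists as Erg28, the scaffold that holds the demethylating enzymes together, had 115, 128 and 197 CPM in placebo and 51.9, 89.6 and 76.4 CPM in DHT, with no overlap (−1.21 ± 0.32, adjusted p = 0.128). Of these 4 genes 2 were called lower with the block and 3 by DESeq2.

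Among 13 genes of SREBP control, 1 rose and 0 fell. Insig2, whose protein retains the SREBP complex in the endoplasmic reticulum, had 48.4, 52.1 and 90.9 CPM in placebo 1, 2 and 3 and 484.7, 537 and 511 CPM in DHT 1, 2 and 3. It rose by 2.81 ± 0.33 on the log2 scale (edgeR adjusted p = 0.00861) and was called in each of 15 alternatives (highest adjusted p = 0.0492). Its DHT libraries lay close together, and far above each placebo library. For Insig1, its relative and an SREBP target, the log2 fold change was −0.76 ± 0.36 (adjusted p = 0.35), with DHT 2 at 737 CPM above DHT 1 and 3 at 419.7 and 434 CPM. Of 7 tested genes among other SREBP2 targets 0 were called by edgeR (2 had an unadjusted p under 0.05), and 3 were called lower with the block and 1 by DESeq2. For Tmem97, a sterol-regulated membrane protein gene among them, the log2 fold change was −0.83 ± 0.27 (edgeR adjusted p = 0.2).

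Of 6 genes that feed electrons to the sterol oxidases or bind them, 1 fell. Por, the reductase that serves both SQLE and CYP51, had 853, 1184 and 509 CPM in placebo 1, 2 and 3 and 164, 123 and 106 CPM in DHT 1, 2 and 3, with no overlap. It fell by 2.88 ± 0.39 on the log2 scale (edgeR adjusted p = 0.0125), a call lost without placebo 1 or DHT 2 (adjusted p up to 0.0818). Por was low in DHT 2 as well, where Sqle lay inside the placebo range and Cyp51 did so only before TMM scaling. For Pgrmc2, a heme-binding partner, the log2 fold change was 0.86 ± 0.33 (adjusted p = 0.256) and rose with the block (adjusted p = 0.024).

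Of 8 genes of sterol sensing by LXR and cholesterol export, 0 were called by edgeR and 1 had an unadjusted p under 0.05, and the block and DESeq2 each called 1 lower. The smallest p-values were those of Abcg5 (−1.09 ± 0.32, edgeR adjusted p = 0.156) and Abcg8 (−0.88 ± 0.42, adjusted p = 0.346), which form the transporter that moves sterol into bile. Of 10 genes of cholesterol use and storage 1 fell, Cyp7a1, the rate-limiting enzyme of bile acid synthesis, with 292.5, 284 and 196 CPM in placebo and 37.1, 32.9 and 52.8 CPM in DHT (−2.84 ± 0.31, adjusted p = 0.00518). It was called in each of 15 alternatives (highest adjusted p = 0.0364). Cyp7b1, an oxysterol hydroxylase gene, had 1.74 ± 0.53 (adjusted p = 0.174) and was called higher with the block and by DESeq2.

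**Figure D5:**
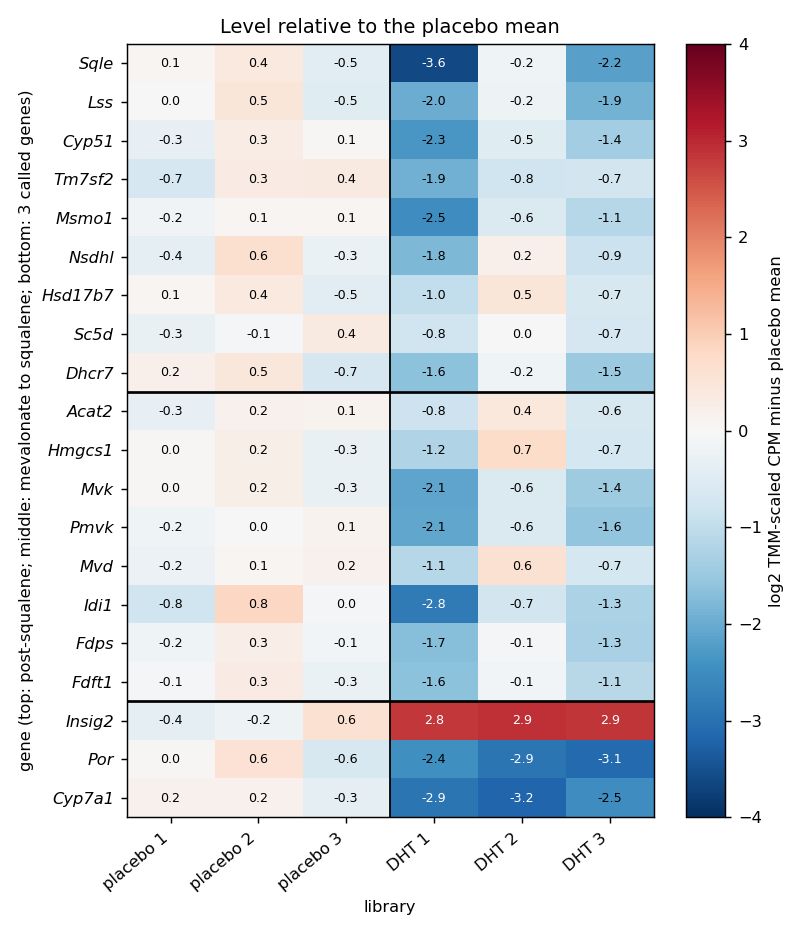
Log2 TMM-scaled CPM minus the placebo mean (colour and printed value) for the 9 enzymes (top), 8 mevalonate to squalene genes (middle) and 3 called genes (bottom) in each library (columns). The top blocks are lowest in DHT 1 and near 0 in DHT 2 for most genes, while Insig2, Por and Cyp7a1 vary less between the 3 DHT libraries. These 3 were drawn because they were called, and a call favours genes with a small spread within groups.

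Genes that followed the 9 most closely were ranked by Pearson's r between their log2 TMM-scaled CPM and the mean standardised log2 level of the 9, over the 6 libraries, among 8916 genes with a mean of at least 5 CPM outside the 9. The first 5 were Fdps (0.994), Rdh11 (0.992), Fdft1 (0.991), Fastk (0.988) and Mvk (0.970). Fdps and Fdft1 make farnesyl pyrophosphate and squalene, and Mvk phosphorylates mevalonate. The 6 points are the libraries of both groups, and DHT 1 and DHT 3 lie lowest among them, so these values are a description. Within the 9, r with this mean ran from 0.842 (Tm7sf2 and Sc5d) to 0.987 (Cyp51). Each of the 9 is itself part of the mean, which raises its r, so these values cannot be set beside those of the outside genes.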

How the data were processed

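Raw whole-number counts per gene, 1 table for each of the 6 liver libraries, were used as the authors deposited them. The submitters' processing notes list Trimmomatic 0.36, STAR 2.5.2b, featureCounts, Subread 1.5.2 and the build GRCm38. For strand, multi-mapping reads and read pairs, the counting options are not given in the labels. 0 rows lacked a gene name. Coordinates are those of the deposited tables.

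CPM values of single libraries divide by the total count, and group tests used TMM scaling (factors 0.9214 to 1.082). DHT was compared with placebo by edgeR 4.0.16 in R 4.3.3: filterByExpr by group, glmQLFit with robust empirical Bayes and glmQLFTest, with Benjamini-Hochberg adjustment over 15126 genes, and calls at an adjusted p under 0.05. The SE is the log2 fold change divided by the square root of F, and 95% intervals use its degrees of freedom. Counting intervals are exact and cover counting error only.

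The members and gene lists were chosen with earlier results of these data known, and lists are described by counts and medians. One listed gene, Faxdc2, was not matched. Named genes are the 9 members, the called genes and the 2 smallest p-values of each other list, and the 5 genes most like the members; some genes under this rule are not reported here. Markers, Y-linked genes and genes ranked by the DHT 2 to DHT 1 ratio are given besides, the last chosen after their values were seen. Alternatives were DESeq2 size factors, library size alone, leaving out the 20 most counted and the mitochondrial genes, 2 other low-count filters, the replicate block, limma 3.58.1 voom, DESeq2 1.42.0, the edgeR fit without robust estimation, and leaving out each library. Deviations from the group means correlated across genes between placebo and DHT libraries of the same number by 0.307, 0.198 and 0.641 for 1, 2 and 3. Each is over 0.1, which was the rule for treating the numbers as pairs. However, placebo 1 correlated more with DHT 2 (0.319), and placebo 2 more with DHT 1 (0.488), than with the library of the same number. Libraries of a group differed beyond sampling noise in every pair.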

Additional observations from a re-analysis of the deposited data

How the results depend on the processing

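In each of the 15 alternatives the 9 enzymes kept a log2 fold change below 0 and none was called higher. None was called lower in 14 of them, and 5 were with the replicate block. Over these alternatives adjusted p-values ran from 0.105 to 0.69 for Sqle and from 0.000585 to 0.684 for Lss. Library size alone moved the median of all genes from −0.0245 to 0.165 and that of the 9 from −1.14 to −0.935, with 207 genes called higher and 89 lower against 144 and 106.

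The number of genes called, 250, was 521 with no low-count filter, 1621 with the replicate block (242 of the 250 among them in the same direction), 707 with limma voom and 999 with DESeq2, and 84 to 862 when single libraries were left out (94, 105 and 862 without placebo 1, 2 and 3; 95, 84 and 165 without DHT 1, 2 and 3). The cause was not tested. The median of the 9 ran from −1.62 to −0.834 over the fits without 1 library. Among the other named genes, Lbr, 0610007P14Rik, Pmvk, Tmem97, Pgrmc2, Abcg5 and Cyp7b1 were called in 1 to 4 of the 15 alternatives, the replicate block among them for each.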
